A study of Homo sapiens with 4 samples.

Results

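The 42 genes described here encode proteins of DNA replication and of the passage from the G1 phase into the S phase of the cell cycle. They form a list of named genes of known function. No measured value is a criterion for membership, but the list was chosen with earlier results of these data known. Each gene was read from 1 probe set, a group of short probes for 1 transcript, namely the brightest by its mean over all profiles among the probe sets naming that gene alone. They were 42 of 19775 genes read in this way. By function, 14 act in origin licensing and the helicase, 12 are polymerases or belong to the clamp and clamp loader, and nucleotide supply, G1/S control, chromatin and histone supply, and repair hold 4 genes each. All 42 had a mean intensity at or above 17.3, the median of all probe sets, and the lowest mean was 50.6, that of ORC1.

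Gene expression was profiled in Huh7 and Hep3B, 2 established human cell lines of hepatocellular carcinoma (HCC), to find which genes differ after arsenic trioxide (ATO), an arsenic compound used against leukemia. In each line, 1 profile came from cells treated with 3 μM ATO for 7 days, described in the labels as a low dose, and 1 profile came from cells given DMSO as the negative control. The labels name no other agent and no engineered allele in either line. The deposited values are intensities on a linear scale from Affymetrix U133 Plus 2.0 arrays, and the sources used here do not give whether several arrays were averaged into a profile. With 1 profile per condition and line, a ratio within a line has no replicate check and no error of its own. The profiles are of bulk RNA, in which fewer cells in S phase and less RNA of a gene per cell cannot be told apart.

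Before cells copy their DNA, the origin recognition complex with CDC6 and CDT1 loads the MCM ring onto origins in G1. At the start of S phase CDC45 and the GINS complex turn that ring into the working helicase, and polymerases held by the PCNA clamp copy the strands. Many genes of this machinery are switched on together by the E2F factors, which the retinoblastoma protein RB1 restrains until cyclin-dependent kinases phosphorylate it. Most hepatocytes of the adult liver rest outside the cycle, whereas HCC cells in culture divide.

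The E2F letters were searched in the RefSeq promoter windows because E2F factors are known to act on many of these genes. The letters TTTCCCGC or TTTGGCGC, on either strand, lay within the 250 bases before the start of 13 of the 38 members with a sequence, which is 34.2%. Among all 27305 windows of the same length 1.96% held them. The windows of E2F1, PCNA and RFC3 are printed 5′ to 3′ on the strand of the gene, with these letters in capitals, since E2F1 had the highest Huh7 ratio of the 42 genes, RFC3 stood on different sides of 1 in the 2 lines, and PCNA lay below 1 in both. They are from GRCh38.p14, on the minus strand at chr20:33686386-33686635 for E2F1 and chr20:5126623-5126872 for PCNA, and on the plus strand at chr13:33817899-33818148 for RFC3.
E2F1: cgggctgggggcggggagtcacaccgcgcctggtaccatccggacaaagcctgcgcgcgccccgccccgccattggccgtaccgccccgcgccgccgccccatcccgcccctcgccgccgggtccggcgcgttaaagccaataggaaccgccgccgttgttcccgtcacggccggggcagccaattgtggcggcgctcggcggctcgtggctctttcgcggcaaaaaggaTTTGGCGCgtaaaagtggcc
PCNA: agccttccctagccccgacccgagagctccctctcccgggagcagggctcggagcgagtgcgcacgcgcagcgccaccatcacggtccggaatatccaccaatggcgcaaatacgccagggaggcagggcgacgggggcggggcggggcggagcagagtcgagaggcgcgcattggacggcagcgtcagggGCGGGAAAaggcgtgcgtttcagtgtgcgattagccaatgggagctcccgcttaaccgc
RFC3: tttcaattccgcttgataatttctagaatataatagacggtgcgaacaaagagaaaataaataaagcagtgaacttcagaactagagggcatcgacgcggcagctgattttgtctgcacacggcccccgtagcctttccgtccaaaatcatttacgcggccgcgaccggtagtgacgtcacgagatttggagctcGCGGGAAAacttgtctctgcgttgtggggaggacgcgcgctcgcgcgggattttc
In the E2F1 window the first of these letters is 20 bases before the start. The PCNA and RFC3 windows hold them in the opposite orientation, beginning 59 and 55 bases before the start. Genes that share the letters thus included ratios on either side of 1, given with their values in the accounts of each group. A match is a description of the sequence and was not tested as a binding site. The letters CCAAT, on either strand, were in 22 of the 38 windows, or 57.9%, against 33.0% of all windows. The letters TTTGAA or TTCGAA, the core of the cell cycle homology region (CHR) of mitotic genes, were on either strand in 2, or 5.26%, against 14.6%, and 10 of the 20 G2 and mitosis genes with a sequence held them. None of the searched strings contains another.

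The 4 profiles had nearly the same distribution, with medians over all probe sets between 15.8 and 16.3. The poly-A spike transcripts that go through labeling with the sample RNA were lower after ATO, their mean log2 ratios being −0.28 (Huh7) and −0.30 (Hep3B), while hybridization controls were at 0.07 and 0.06. The 3' to 5' differences of GAPDH and ACTB changed by −0.07 to 0.03 on the log2 scale with ATO. The 13 hepatocyte and liver cancer markers were at or above the median probe set in every profile, but in the profiles labeled Huh7 the oncofetal markers were low, AFP at 91.8 in control against 3566 in Hep3B control cells and GPC3 at 29.3 against 3729.7. ALB, at 155 against 12803, and TTR, at 48.1 against 1704, were low there too. The other markers went both ways between the controls. SERPINA1 was at 12710 in Huh7 against 10091 in Hep3B, and FGB at 1012 against 210. KRT8 was at 2869 against 2327 and KRT18 at 6196 against 4485. APOA1, APOA2, APOB, AHSG and TF were lower in Huh7, though APOB was still at 4109 and TF at 6610. Huh7 is known as a line that makes AFP and albumin, so the AFP and ALB values go against the label. The identity of that line was not tested, every value given here for Huh7 is that of the profiles with this label, and all ratios are given for each line on its own. Of 11 markers of other cell types 4 to 5 were at or above the median, with summed intensities of 218 to 242, and the leukocyte marker PTPRC was at 6.88 and 8.87 in the controls. The part of these values in the ratios of the replication genes was not tested.

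Few of the 42 genes lay past the ratio thresholds that the study uses, above 1.5 or below 0.67 of the negative control. CCNE2, one of the E-type cyclins that start S phase with CDK2, was below 0.67 in both lines. E2F1, the founding activator of the E2F family, was above 1.5 in Huh7, and UNG, the uracil DNA glycosylase that removes uracil from DNA, was below 0.67 in Hep3B. By the probe sets used, the other 39 genes stayed between the thresholds in both lines. In Huh7 there was 1 member below 0.67, against 3.25% of all genes, and 1 above 1.5, against 3.21%. In Hep3B there were 2 below 0.67, against 4.02%, and 0 above 1.5, against 5.04%. Below 0.67 in both lines there was 1 member, against 0.587% of all genes, and 0 were above 1.5 in both, against 0.804%.

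Most members lay slightly above 1 in Huh7, whereas in Hep3B they were divided. The ratio was above 1 in 34 of the 42 genes in Huh7, where 51.1% of all genes were, and below 1 in 25 of 42 in Hep3B, where 43.7% of all genes were. The median log2 ratio of the members was 0.17 in Huh7 beside 0.01 over all genes, and −0.04 in Hep3B beside 0.04 over all genes. Without CCNE2 the medians were 0.17 and −0.03. Ratios ran from 0.565 to 1.51 in Huh7 and from 0.485 to 1.36 in Hep3B.

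**Figure D1:**
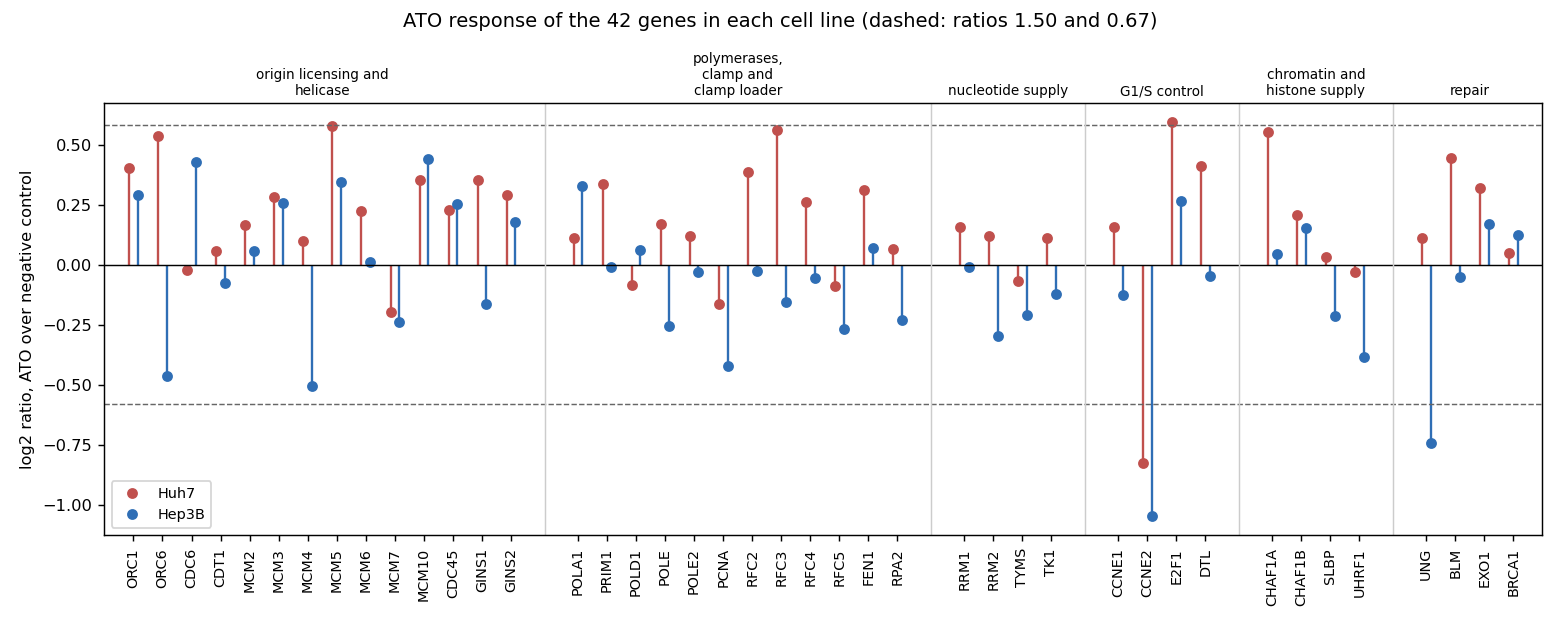
ATO response of each of the 42 genes as a log2 ratio to the negative control (y axis), ordered by function (x axis), in Huh7 (red) and Hep3B (blue), 1 point per gene and line without error bars because each ratio rests on 1 profile per condition. The dashed lines mark ratios of 1.5 and 0.67. CCNE2 lies below the lower line in both lines, UNG below it in Hep3B, and E2F1 just above the upper line in Huh7.

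Of the 14 genes of origin licensing and the helicase, 12 were above 1 in Huh7, where 51.1% of all genes were, and 5 were below 1 in Hep3B, where 43.7% of all genes were. None of the 14 passed a threshold by the probe set used. Their median log2 ratio was 0.26 in Huh7 and 0.12 in Hep3B. Among the MCM subunits, MCM5 had an intensity of 373 in Huh7 negative control cells and 559 after ATO, and of 818 and 1041 in Hep3B. Both ATO profiles were above their controls, with ratios of 1.498 and 1.27, the first just under the threshold. MCM3, another subunit of the ring, measured 836 in Huh7 control and 1018 in Huh7 ATO cells, and 1149 and 1377 in Hep3B. The ratios of MCM3 were 1.22 and 1.20, nearly equal in the 2 lines. MCM6, the member of this group with the highest mean intensity, went from 1003 to 1174 in Huh7 and from 1485 to 1501 in Hep3B, so that the Hep3B pair was almost level. For MCM2 the Huh7 ratio was 1.12 and the Hep3B ratio 1.04.

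By the probe sets used, MCM4 and MCM7 stood apart from the other ring subunits. MCM4 measured 229 and 246 in Huh7 control and ATO cells, and 633 and 446 in Hep3B. Its Hep3B ratio of 0.705 was the lowest of the group in that line, whereas its Huh7 ratio was 1.07. Another MCM4 probe set, with a mean intensity of 346 against 389 for the one used, gave 1.32 in Huh7 and 0.980 in Hep3B. Dimmer ones gave 1.11 and 0.823, and 1.04 and 1.03, so the low Hep3B reading depends on the probe set. MCM7 was lower after ATO in both lines, at 462 and 403 in Huh7 and 794 and 674 in Hep3B, which gives ratios of 0.873 and 0.8496. It was the 1 member of the licensing group below 1 in both lines.

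The loading and activating factors gave mixed pairs. ORC6, a subunit of the origin recognition complex, measured 316 in control and 459.6 in ATO cells of Huh7, and 380.3 in control and 276 in ATO cells of Hep3B. The ATO profile was thus the higher one in Huh7, with a ratio of 1.45, and the lower one in Hep3B, with a ratio of 0.725, the widest gap between the lines of any member. Its only probe set ends in _x_at, a class whose probes can bind related transcripts, so the reading is uncertain. ORC1, the largest subunit of that complex, measured 42.3 and 56.1 in Huh7 and 46.7 and 57.2 in Hep3B, with both ATO profiles above both controls. CDC6, the loader that joins the complex, was level in Huh7, at 171 and 169, and went from 166 to 223 in Hep3B, a ratio of 1.35. A second CDC6 probe set of nearly equal mean intensity gave 1.13 in Huh7 and 1.32 in Hep3B. CDT1, the other loader, had ratios of 1.04 and 0.950, also from an _x_at probe set.

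MCM10, which helps to start the loaded helicase, measured 217 and 278 in Huh7 and 134 and 182 in Hep3B. Its ratios of 1.28 and 1.36 were both above 1. By the probe sets used, that in Hep3B was the highest of all 42 genes in that line. Dimmer MCM10 probe sets gave 1.44 in Huh7 and 1.28 in Hep3B, and 1.18 and 0.846. The Hep3B side of MCM10 thus depends on the probe set. CDC45, a part of the active helicase, went from 134 to 157 in Huh7 and from 142 to 170.3 in Hep3B. The GINS subunits, which complete that helicase, differed from each other, since GINS2 was above 1 in both lines, with ratios of 1.22 and 1.13, and GINS1 was above 1 in Huh7, at 1.28, and below it in Hep3B, at 0.895.

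**Figure D2:**
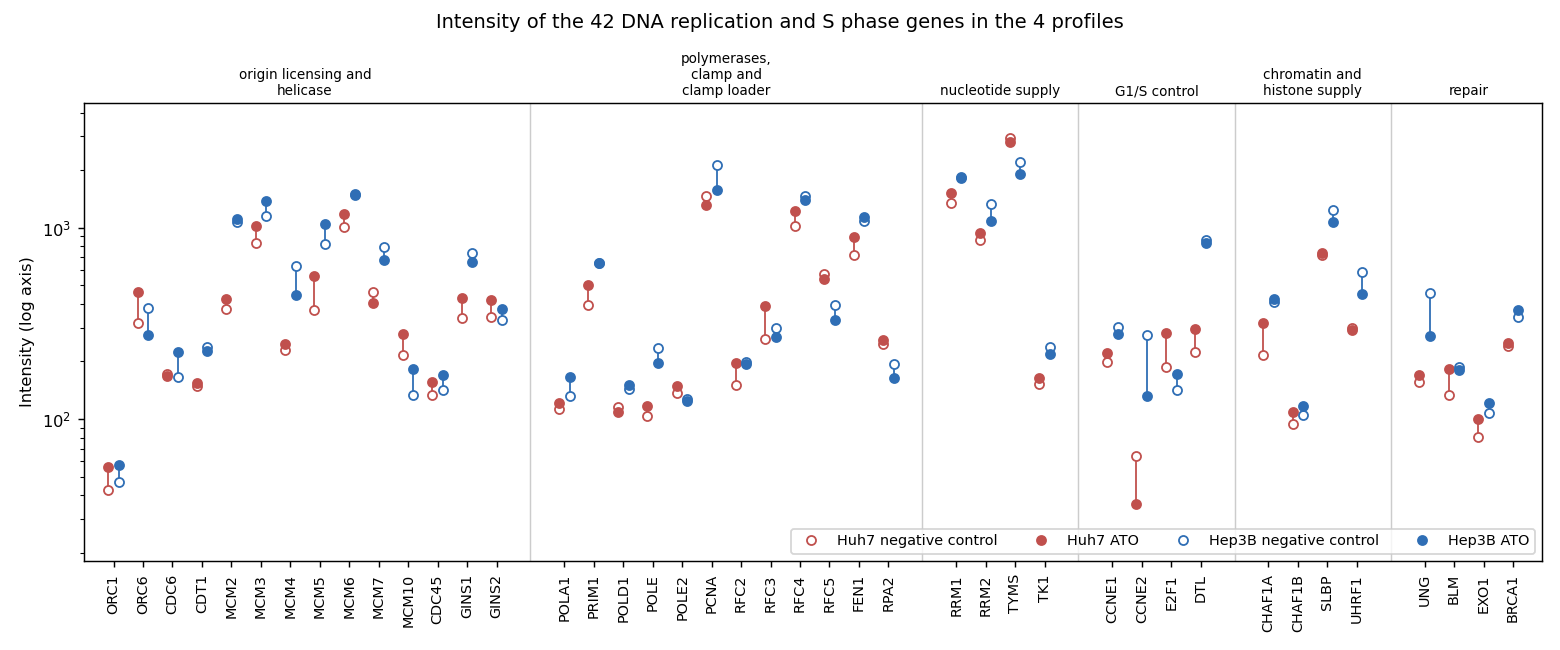
Intensity of each of the 42 genes on a log axis (y) in the 4 profiles, ordered by function (x), with open circles for negative control and filled circles for ATO cells, red for Huh7 and blue for Hep3B. Each circle is 1 profile and there are no error bars, and a line joins control and ATO within a cell line. The CCNE2 pairs drop after ATO in both lines and the Hep3B pair of UNG drops, while most other pairs lie close together, and many blue pairs sit above the red pair of the same gene.

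The 12 polymerase, clamp and clamp loader genes divided between the lines. In Huh7 9 of 12 had a ratio above 1, against 51.1% of all genes. In Hep3B 9 of 12 had a ratio below 1, against 43.7% of all genes. The median log2 ratios were 0.15 and −0.04, with no member past a threshold by the probe set used. PCNA, the sliding clamp that holds the polymerases on DNA, measured 1461 in Huh7 control and 1307 in Huh7 ATO cells, and 2118 and 1583 in Hep3B. Both ATO profiles were below their controls, with ratios of 0.895 and 0.748. By the probe sets used, the Hep3B ratio was the lowest of this group. The clamp is placed on DNA by replication factor C, and its RFC3 subunit measured 263 and 389 in Huh7 and 299 and 269 in Hep3B. The RFC3 ratio was 1.48 in Huh7, just under the threshold, and 0.900 in Hep3B. RFC2 and RFC4 were likewise above 1 in Huh7, at 1.31 and 1.20, and close to 1 in Hep3B, at 0.983 and 0.963. RFC5 was below 1 in both, at 0.943 and 0.832. Another RFC5 probe set, with a mean intensity of 329, gave 0.891 in Huh7 and 0.608 in Hep3B, the latter past the threshold. A dimmer one gave 1.11 and 0.912, so the Huh7 side of RFC5 depends on the probe set.

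Of the polymerase subunits, POLA1, the catalytic subunit of polymerase alpha, was above 1 in both lines, at 1.08 in Huh7 cells and 1.26 in Hep3B cells. Its partner PRIM1, the primase that makes the RNA primer, had ratios of 1.26 and 0.994. POLE, the catalytic subunit of the leading strand polymerase epsilon, had ratios of 1.13 and 0.838, and POLE2, its second subunit, 1.09 and 0.981. POLD1, the catalytic subunit of the lagging strand polymerase delta, ran the other way, at 0.945 in Huh7 and 1.04 in Hep3B. By the probe sets used, POLD1 and CDC6 were the 2 members below 1 in Huh7 and above 1 in Hep3B. FEN1, the nuclease that trims the ends of Okazaki fragments, was above 1 in both, at 1.24 and 1.05. RPA2, a subunit of the protein that covers single-stranded DNA, had ratios of 1.05 and 0.853.

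The 4 genes of nucleotide supply lay near 1 in Huh7 and all below 1 in Hep3B, where 43.7% of all genes were below 1. Their ratios ran from 0.955 to 1.12 in Huh7 and from 0.814 to 0.994 in Hep3B. TYMS, the thymidylate synthase that 5-fluorouracil blocks, had the highest mean intensity of the 4, with 2928 and 2796 in Huh7 control and ATO cells and 2197 and 1904 in Hep3B. Its ATO profile was the lower one in both lines, by ratios of 0.955 and 0.867. A dimmer probe set of TYMS, with a mean intensity of 444, gave 1.15 in Huh7 and 1.004 in Hep3B. The side of 1 for TYMS thus depends on the probe set. RRM2, the regulated small subunit of ribonucleotide reductase, measured 867 and 943 in Huh7 and 1331 and 1084 in Hep3B, and the Hep3B ratio of 0.814 was the lowest of the 4. RRM1, the large subunit, had ratios of 1.12 and 0.994. TK1, the thymidine kinase of the salvage route, had ratios of 1.08 and 0.920. A second TK1 probe set, with a mean intensity of 186 against 193 for the one used, gave 0.953 and 0.929. A second RRM2 probe set gave 0.928 in Huh7 and 0.911 in Hep3B. The Huh7 side of TK1 and of RRM2 thus depends on the probe set.

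The G1/S control group held both of the genes past a threshold in Huh7, and they lay on opposite sides. CCNE2 had an intensity of 63.8 in control and 36.0 in ATO cells of Huh7, and of 274 in control and 132.6 in ATO cells of Hep3B. Each ATO profile was below its own control, the ratio being 0.565 for Huh7 and 0.485 for Hep3B, although the Hep3B ATO profile was still above the Huh7 control. In Huh7 1.11% of all genes had a lower ratio than CCNE2, and in Hep3B 0.829%. With the mean of all its probe sets in place of the brightest, its log2 ratio in Huh7 was −0.48, which is within the threshold. The other cyclin of the pair, CCNE1, stayed near 1, with 198 and 221 in Huh7 and 302 and 278 in Hep3B, or ratios of 1.12 and 0.919.

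E2F1, whose promoter window is printed above, is a gene of chromosome 20, from 33675477 to 33686385 in the RefSeq annotation of GRCh38.p14. It measured 186 in control and 282 in ATO cells of Huh7, and 142 and 171 in Hep3B. Both ATO profiles were above their controls, by ratios of 1.51, just past the threshold, and 1.20. In Huh7 97.0% of all genes had a lower ratio, and in Hep3B 78.9%. The Huh7 value did not hold past the threshold with the mean of its probe sets, a log2 ratio of 0.44, or with an offset of 16 added to the intensities, 0.56. DTL, the receptor through which a ubiquitin ligase removes CDT1 in S phase, measured 223 and 297 in Huh7 and 858 and 832 in Hep3B. Its ratio was 1.33 in Huh7 and 0.971 in Hep3B, and both Hep3B profiles were above both Huh7 profiles.

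By the probe sets used, genes of chromatin and histone supply did not pass a threshold. CHAF1A, the large subunit of the chromatin assembly factor that puts histones on new DNA, measured 215 and 317 in Huh7 and 411 and 424 in Hep3B. The Huh7 pair was wide, with a ratio of 1.47, and the Hep3B pair narrow, with 1.03. Dimmer CHAF1A probe sets gave 1.57 in Huh7 and 1.19 in Hep3B, and 1.44 and 1.38. The size of the gap between the lines thus depends on the probe set. CHAF1B, the middle subunit, had ratios of 1.16 and 1.11. SLBP, which binds the stem loop of histone messages, had the highest mean intensity of the 4, at 716 and 733 in Huh7 and 1243 and 1073 in Hep3B, and was near level in Huh7. UHRF1, which brings the maintenance DNA methyltransferase to new DNA, measured 297 and 292 in Huh7 and 585 and 449 in Hep3B, with a Hep3B ratio of 0.768.

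Among the 4 repair genes all were above 1 in Huh7, where 51.1% of all genes were. In Hep3B 2 of 4 were below 1, near the share of 43.7% of all genes. UNG, on chromosome 12 from 109097597 to 109110992 in the same annotation, measured 157 in control and 170.1 in ATO cells of Huh7, and 455 in control and 272 in ATO cells of Hep3B. The pair was close in Huh7, with a ratio of 1.08, and apart in Hep3B, with a ratio of 0.599, and 2.16% of all genes had a lower ratio in Hep3B. BRCA1, the mediator of repair by homologous recombination, had the highest mean intensity of the 4, with 241 and 249.7 in Huh7 and 341 and 373 in Hep3B, and both ATO profiles were slightly the higher. BLM, the helicase that dissolves recombination intermediates, had ratios of 1.36 and 0.966. EXO1, an exonuclease of mismatch repair, was above 1 in both lines, with log2 ratios of 0.32 and 0.17.

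Set side by side, the 2 lines gave the members different ratios. The ratio was higher in Huh7 than in Hep3B for 36 of the 42 genes, against 46.3% of all genes. In 15 members both ratios were above 1, against 32.0% of all genes, and these were ORC1, MCM2, MCM3, MCM5, MCM6, MCM10, CDC45, GINS2, POLA1, FEN1, E2F1, CHAF1A, CHAF1B, EXO1 and BRCA1. In 6 both were below 1, against 24.7%, and these were MCM7, PCNA, RFC5, TYMS, CCNE2 and UHRF1. A further 19 were above 1 in Huh7 and below 1 in Hep3B, against 18.9%, and 2 the reverse, against 23.9%. These sides are those of the probe set used. For some genes, CDC6, MCM10, RFC5, RRM2, TK1 and TYMS among them, another bright probe set gave a different side. With 1 profile per condition the difference between the lines was not tested. Across the 42 genes the log2 ratios of the 2 lines had a Spearman correlation of 0.43, and of 0.38 without CCNE2, beside 0.20 across all genes. These are descriptions over genes that share the same 4 profiles.

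**Figure D3:**
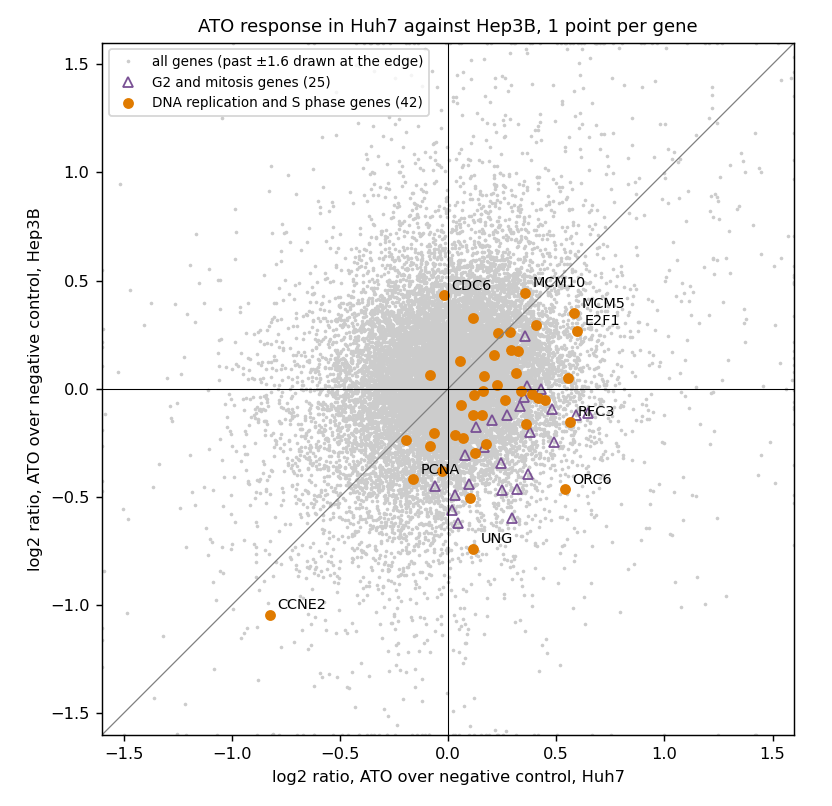
ATO response as a log2 ratio to the negative control, Huh7 on the x axis and Hep3B on the y axis, with 1 point per gene: the 42 replication genes in orange, 25 G2 and mitosis genes as purple triangles and all 19775 genes in gray, without error bars. The diagonal marks equal ratios. Of the 42 genes 36 lie below the diagonal, CCNE2 lies far to the lower left, and the triangles gather to the right of 0 and below it.

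The only test across profiles took the lines as 2 replicates and was fitted over all genes with limma on log2(intensity + 16), with line and treatment as terms and 1 residual degree of freedom. No gene passed an adjusted p of 0.05, a share of 0% of all genes, so 0 of the 42 members were called, and the smallest adjusted p among them was 0.506. At an unadjusted p under 0.05 there were 8 members, against 9.54% of all genes, and these were ORC1, MCM3, MCM5, MCM7, MCM10, CDC45, CCNE2 and E2F1. The mean log2 ratio over the lines was −0.93 ± 0.16 (SD, n = 2 lines) for CCNE2, 0.47 ± 0.17 for MCM5, 0.43 ± 0.23 for E2F1 and 0.40 ± 0.06 for MCM10. For UNG it was −0.31 ± 0.60 and for ORC6 0.04 ± 0.71, where the spread between lines was larger than the mean.

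In the negative controls, the members tended to be brighter in Hep3B than in Huh7. The ratio of the Hep3B to the Huh7 negative control was above 1.5 in 18 of the 42 genes, against 15.3% of all genes, and below 0.67 in 1, MCM10, against 17.1%. With probe sets not ending in _x_at or _s_at, 0 members were below 0.67. MCM10 read 217 in Huh7 and 134 in Hep3B control cells by the probe set used. Dimmer probe sets of MCM10 read 44.8 and 65.3, and 25.8 and 39.8, so its side depends on the probe set. The 18 above 1.5 were CDT1, MCM2, MCM4, MCM5, MCM7, GINS1, PRIM1, POLE, FEN1, RRM2, TK1, CCNE1, CCNE2, DTL, CHAF1A, SLBP, UHRF1 and UNG. RRM2 read 867 in Huh7 and 1331 in Hep3B controls by the probe set used, but 1176 and 641 by another bright one. The side of RRM2 thus depends on the probe set. For the rest of the 18, every other probe set at or above the median was also brighter in the Hep3B control. The largest ratio was that of CCNE2, 4.29, followed by 3.85 for DTL and 2.90 for UNG. Another DTL probe set read 168 in Huh7 and 310 in Hep3B controls, a narrower pair than the 223 and 858 of the one used. Of the members past an ATO threshold, CCNE2 and UNG were therefore brighter in the Hep3B negative control cells, and E2F1 was dimmer there, with 0.765. The median ratio was 1.43 over the members and 0.971 over all genes. This comparison uses the same control profiles as the ATO ratios and has no test, since each line holds 1 control profile.

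Some members were read by more than 1 probe set, which is the only repeat measure within a profile. Of the 42 genes 19 had at least 1 other probe set naming them alone at or above the median intensity, 26 other probe sets in all. In Huh7 18 of these 26 lay on the same side of 1 as the probe set used, and in Hep3B 19 of 26. The median absolute log2 difference from the probe set used was 0.18 in Huh7 and 0.15 in Hep3B, about as large as the median log2 ratio of the members in Huh7. The second probe set of E2F1 gave ratios of 1.22 and 1.16, both above 1 but within the thresholds. That of MCM5 gave 1.59 in Huh7 and 1.247 in Hep3B, and that of MCM7 0.731 and 0.779. For CDT1 the second probe set gave 1.51 and 1.43 where the one used gave 1.04 and 0.950. The second probe set of CCNE2 had a mean intensity of 11.9, below the median of all probe sets, and gave ratios of 0.913 and 0.634. UNG, ORC6 and PCNA had no other probe set naming them alone.

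**Figure D4:**
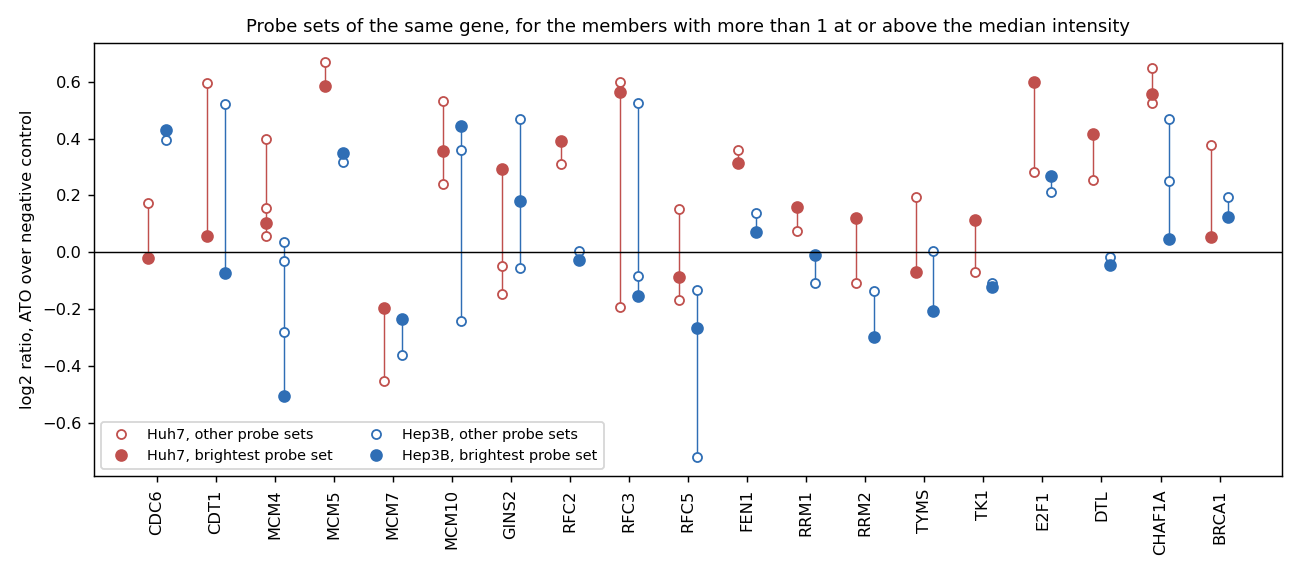
Log2 ratio to the negative control after ATO (y axis) for the 19 members with more than 1 probe set at or above the median intensity (x axis), with filled circles for the probe set used and open circles for the others, red for Huh7 and blue for Hep3B, and a line joining the probe sets of a gene. The probe sets of MCM5, MCM7 and CHAF1A stay on 1 side of 0 in both lines, whereas those of RFC3 and GINS2 lie on both sides.

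Other genes of the same pathway came from fixed lists, and those past a threshold are given beside the shares over all genes. Of 34 other replication fork and origin genes 25 were above 1 in Huh7, against 51.1% of all genes. In Hep3B 20 were above 1 and 14 below, near the share of 43.7% of all genes below 1. Their median log2 ratios were 0.13 and 0.06. In Huh7 2 of them passed 1.5, against 3.21% of all genes. They were GINS4 of the GINS complex, at 2.58, and the checkpoint mediator CLSPN, at 1.53. In Hep3B 2 were below 0.67, against 4.02% of all genes. They were the topoisomerase TOP2A, at 0.584, and DBF4, which activates the origin kinase, at 0.629. Of 14 other S phase nucleotide and chromatin genes none passed a threshold in either line. Of 19 other repair and checkpoint genes 1 was below 0.67 in each line, against 3.25% of all genes in Huh7 and 4.02% in Hep3B. These were NBN of the break sensor, at 0.637 in Huh7, and RAD51AP1, a helper of the recombinase, at 0.656 in Hep3B.

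Among 28 other G1/S regulators, 2 genes passed a threshold in the same direction in both lines. CDKN1A, the p21 inhibitor of the cyclin kinases, measured 224 and 353 in Huh7 control and ATO cells and 83.9 and 188 in Hep3B, with ratios of 1.57 and 2.24. CDKN1B, the p27 inhibitor, measured 524 and 333 in Huh7 and 841 and 485 in Hep3B, with ratios of 0.636 and 0.576. The 2 inhibitors of cyclin E kinase thus lay on opposite sides. RB1 was at 136 and 117 in Huh7 and at 6.71 and 6.05 in Hep3B, where it was below the median probe set. In Huh7 2 of the 28 regulators were above 1.5 and 1 was below 0.67, against 3.21% and 3.25% of all genes. CCND1, the cyclin of early G1, was the other one above 1.5 in Huh7, at 1.93, and was at 0.720 in Hep3B. In Hep3B 5 regulators were above 1.5 and 4 below 0.67, against 5.04% and 4.02% of all genes, and the 4 included CCNA2, the S phase cyclin, at 0.443, and the repressor E2F7, at 0.581, which were at 1.06 and 1.03 in Huh7.

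The 25 G2 and mitosis genes, which act after S phase, had median log2 ratios of 0.29 in Huh7 and −0.25 in Hep3B, beside 0.17 and −0.04 for the replication genes. Of these 25, 24 were above 1 in Huh7, against 51.1% of all genes, and 22 were below 1 in Hep3B, against 43.7%. All 25 had the higher ratio in Huh7, against 46.3% of all genes. MKI67, a marker of cycling cells, measured 442 and 509 in Huh7 and 469.6 and 425 in Hep3B. The difference between these genes and the replication genes was not tested.

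**Figure D5:**
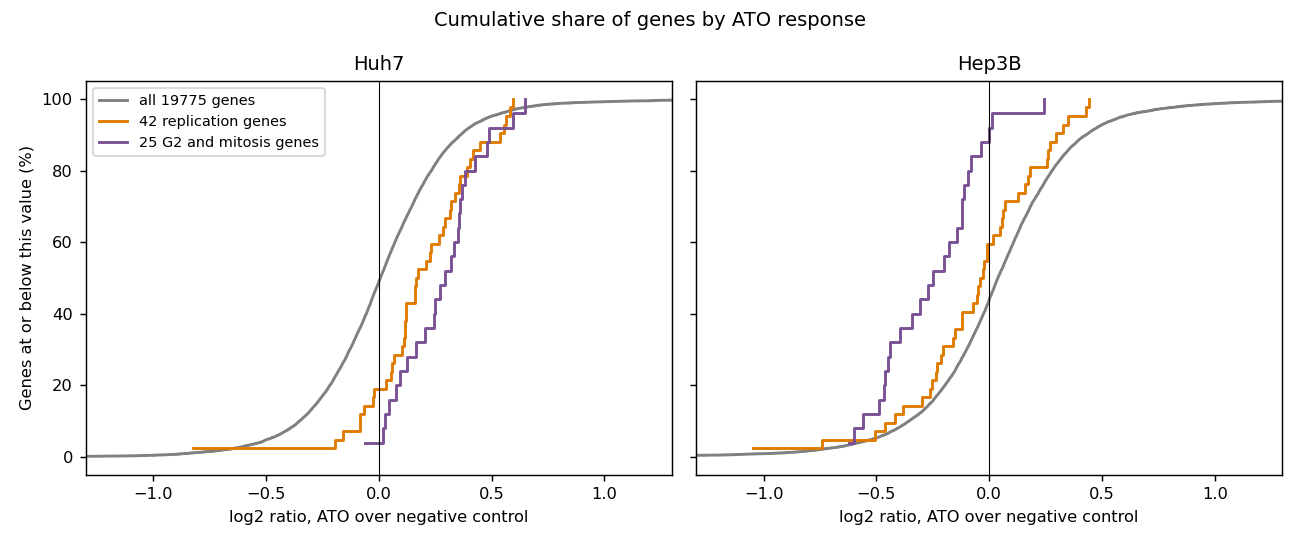
Cumulative share of genes (y axis, %) whose log2 ratio of ATO to control was at or below the value on the x axis, in Huh7 (left) and Hep3B (right), for all 19775 genes in gray, the 42 replication genes in orange and 25 G2 and mitosis genes in purple. In Huh7 the orange curve runs mostly to the right of the gray one, with medians of 0.17 and 0.01, and in Hep3B mostly to its left, with medians of −0.04 and 0.04.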

How the data were processed

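RNA of ATO-treated and negative control Huh7 and Hep3B cells was profiled on Affymetrix U133 Plus 2.0 arrays. The authors preprocessed the data by Robust Multi-array Average, log transformation and normalization in simpleaffy. The deposited values are intensities on a linear scale, from 2.24 to 14164 over 54675 probe sets, and the return from the log scale is not given in the sources used here. Of the probe sets, 41097 name 1 gene, 1801 several and 11777 none in the platform annotation, which left 19775 genes. Each line's ratio is its ATO intensity over its control intensity. Precision is limited by having 1 profile per condition in each line, and no detection calls were used. Across lines limma 3.58.1 in R 4.3.3 was run on log2(intensity + 16) with line as a block, with Benjamini-Hochberg adjustment over all genes at 0.05 and 1.81 prior degrees of freedom. The steps were tested on simulated data in which the changed genes changed strongly and equally in both lines. That setting does not show how the steps perform on small changes or on genes that differ between the lines. No value within a line was tested, and nothing in the sources says that the cultures of a line were separate.

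The members and the other gene lists were chosen with earlier results of these data known. By rule, members past 1.5 or 0.67 in at least 1 line and the brightest member of each function were given in all 4 profiles. The other members given in full, and regulators past a threshold in only 1 line, were chosen after their values were seen. All 42 members matched the RefSeq gene table, and 38 matched the RefSeq promoter table, both of GRCh38.p14. MCM4, MCM5, RPA2 and CCNE2 had no entry there. Of the other lists, 1 S phase gene, 1 regulator, 8 repair genes and 1 marker were not analysed here. Alternatives changed the probe set for a gene, normalization, centring, dim genes, the offset, the thresholds, the prior and the block, or left out a line. RT-qPCR, protein and animal data were not analysed here.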

Additional observations from a re-analysis of the deposited data

Results flagged for a closer look

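The lines differed in how the replication genes responded to ATO. The median log2 ratio of the 42 genes was 0.17 in Huh7 and −0.035 in Hep3B. Of the 42, 19 were above 1 in Huh7 and below 1 in Hep3B, against 18.9% of all genes. For ORC6 the Huh7 ratio was 1.45 and the Hep3B ratio 0.725. Of the 25 G2 and mitosis genes, 21 were above 1 in Huh7 and below 1 in Hep3B, beside the same 18.9% of all genes. With 1 profile per condition and line, the difference between the lines was not tested.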

How the results depend on the processing

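The medians and the ratios of CCNE2 and E2F1 in Huh7 and of CCNE2 and UNG in Hep3B kept their sign in every alternative run on them, while other single members crossed 1, as the changing counts show. In all alternatives that kept both lines and the thresholds, the median log2 ratio of the members was 0.16 to 0.20 in Huh7 and −0.07 to −0.02 in Hep3B, 14 to 18 members were above 1 in both lines, 5 to 8 below 1 in both, 17 to 20 above 1 in Huh7 and below 1 in Hep3B, and 35 to 37 had the higher ratio in Huh7. In each case the cause of a moved count was not tested. With looser thresholds, 0.80 and its inverse in place of 0.67 and 1.5, the counts above the upper one were 12 in Huh7, 4 in Hep3B and 2 in both, and 6 were below the lower one in Hep3B, and 5 among the Hep3B over Huh7 controls. With 2 and 0.5 they were 0 in Huh7 above and 0 below, 1 below in Hep3B, 0 below in both, and 8 above and 0 below among the controls. With the mean of all probe sets 0 members were below 0.67 in Huh7 and 0 in both, CCNE2 being at a log2 ratio of −0.48 and E2F1 at 0.44 in Huh7. With probe sets not ending in _x_at or _s_at, 2 were above 1.5 in Huh7 and 0 below 0.67 among the controls, where MCM10 had been. With an offset of 16 added to the intensities 0 were above 1.5 in Huh7, E2F1 being at 0.56. Leaving out 1 line in turn gave 0 to 1 members above 1.5 and 1 to 2 below 0.67 in the other. The control and line comparisons under these settings were added after seeing the data.

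No member was called by limma in any alternative, and the smallest adjusted p of a member ranged from 0.168 to 1. At an unadjusted p under 0.05 the 8 members became 4 with centring, 4 with dim genes left out, 4 without the offset, 4 with an intensity trend, 1 without the cell line block, which pairs ATO with its control in each line, and 12 with the mean of all probe sets. Over all genes limma called 3 with dim genes left out, 8 without the offset and 9 with the trend. With 1 line left out, limma has no residual degrees of freedom and gave no value. Intensities near the median probe set, 17.3, limit the ratios of dim genes, and the members lay above it.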
